A study of Drosophila melanogaster with 8 samples.

Results

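The fruit fly genome carries 6 conventional actin genes, Act5C, Act42A, Act57B, Act79B, Act87E and Act88F. They were taken by their gene names from the 2 deposited expression tables, where all 6 were found among 23983 entries for adult muscle and 17898 entries for adult whole fly. Expression had been measured by RNA sequencing in 8 libraries, 2 of each genotype in each tissue. Libraries were made from total RNA with a SMARTER mRNA-seq kit, and the genotypes are labelled wildtype and mutant. The series describes the mutant as a knockout of anw, and its title names Angel Wing, a class of splicing regulators. The allele, the genetic background, the sex and the age of the adults, and the way muscle was dissected, are not stated in the labels. All flies were raised at the same temperature on cornmeal food. Nothing says whether the repeats are different animals. The p-values below therefore reflect the variation among these libraries alone, which may be technical. RNA of the knocked-out gene was not analysed here, so the genotype labels were not checked against it.

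Actin polymerises into filaments that form the thin filaments of the sarcomere in muscle and the cytoskeleton in every other cell. In Drosophila, Act5C and Act42A encode the cytoplasmic actins that all cells use for shape, division and transport. The other genes are used mainly in muscle. Act88F is the actin of the indirect flight muscles, Act79B that of tubular muscles such as the jump and leg muscles, and Act57B and Act87E are known from larval body wall and adult abdominal muscles.

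The genes lie apart on the genome. In release 6 coordinates Act5C (FBgn0000042) spans 5900861 to 5905399 on the X chromosome, Act79B (FBgn0000045) 21985210 to 21987190 on 3L, Act87E (FBgn0000046) 13425983 to 13428375 on 3R, and Act88F (FBgn0000047) 15439969 to 15442177 on 3R. Act57B (FBgn0000044) spans 20944021 to 20946431 and Act42A (FBgn0000043) 6013910 to 6015689, both on 2R. Act42A is on the minus strand and the others on the plus strand. All 6 have a coding length of 1128 bases, so they differ in size only outside the coding part. Act5C is annotated with 5 transcripts, Act87E with 3, Act79B with 2 and each of the others with 1. The coding part is interrupted by an intron in Act57B, Act79B and Act88F and lies in a single exon in Act5C, Act42A and Act87E. A small nucleolar RNA gene inside Act57B was listed at 0 reads in all 8 libraries, and a noncoding gene on the strand opposite Act87E had at most 3 reads in any library. Actin coding sequences are highly alike, and how reads that match several genes were handled is not given, so part of each gene's reads could belong to another actin.

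Between 18580751 and 22210197 reads were assigned to genes per library. The actin genes together took 108646 to 277386 of these, and even the weakest, Act42A in muscle, had 387 to 791 reads. The muscle wildtypes were more alike (Pearson correlation of log2 values across 10079 entries, which are not independent, 0.973) than the muscle mutants (0.878), and mutant replicate 2 had 25.1% of its reads on the mitochondrial genome against 14.4% to 16.7% in the other muscle libraries. In whole flies the correlations were 0.991 and 0.990. Muscle libraries carried RNA of thin filament genes at 1.11% to 1.41% of reads against 0.298% to 0.578% in whole flies. They also carried digestive enzyme RNA, at 1.93% and 2.49% of reads in wildtype and 1.66% and 1.09% in mutant. Whole flies had 2.67% and 2.61% in wildtype and 1.35% and 1.43% in mutant. Muscle RNA was thus not free of gut RNA. Its share was below that of whole flies of the same genotype except in mutant replicate 1, where it was above. The 10 testis genes summed to 126 and 38.9 FPKM in wildtype muscle and 399 and 1.84 in mutant muscle, with 5 of them at 0 in mutant replicate 2. The part of gut and testis RNA in the muscle values was not tested.

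In muscle, Act88F and Act79B together made up most of the actin RNA in each library. FPKM, the deposited unit, scales reads by library size and by gene length, so it is a level per length. A comparison between the genes of a library rests on the length given to each gene. Act5C was given 2978 bases for its 5 transcripts, and the other actins 1595 to 1989. The place and share of Act5C therefore depend on that length. The library size that FPKM implies ran from 0.884 times the reads assigned to genes in muscle mutant replicate 2 to 1.09 times in muscle mutant replicate 1. The wildtype libraries had 2169 and 3910.0 FPKM of Act88F, the mutants 2445 and 1311. For Act79B the wildtypes had 2279 and 2904 FPKM, the mutants 3359.6 and 3989.6. Both genes were thus among the most abundant of 13968 protein-coding entries, Act79B at rank 14 to 38 and Act88F at rank 18 to 70.

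The other muscle actins were several-fold lower. Act57B had 413 and 534 FPKM in wildtype muscle and 474 and 650.0 in mutant muscle, and Act87E had 239 and 260.1 against 277 and 333. The mutants were both above the wildtypes for Act79B and Act87E, as for 23.6% of the 10079 muscle entries tested, and the genotypes overlapped for Act57B and Act88F. The 2 Act88F values of each genotype lay far apart, with a mean of 3039.6 ± 1231 FPKM in wildtype and 1878 ± 802 in mutant (SD, n = 2 each).

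Of the cytoplasmic pair, Act5C was the main form in muscle. Its level was 288 and 368 FPKM in the wildtypes, and both mutants were lower at 269 and 243. For Act42A the wildtypes had 19.7 and 15.0 FPKM and the mutants 24.0 and 13.0, which overlapped. Act5C was thus 14.6-fold and 24.6-fold above Act42A in wildtype muscle and 11.2-fold and 18.6-fold above it in mutant muscle.

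Ordered by their mean levels, the genes in wildtype muscle ran Act88F, Act79B, Act57B, Act5C, Act87E, Act42A, where Act88F and Act79B overlapped and the other neighbours did not. In mutant muscle the order was Act79B, Act88F, Act57B, Act87E, Act5C, Act42A, with no overlap between neighbours. By reads, Act5C was above Act57B in both wildtypes (18330 against 15234 and 22511 against 18937). It was above Act87E by reads in both mutants (16235 against 11172 and 13196 against 12110). Act79B was above Act88F in both mutants, but also in wildtype replicate 1, and no actin gene passed the test between genotypes in muscle.

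**Figure D1:**
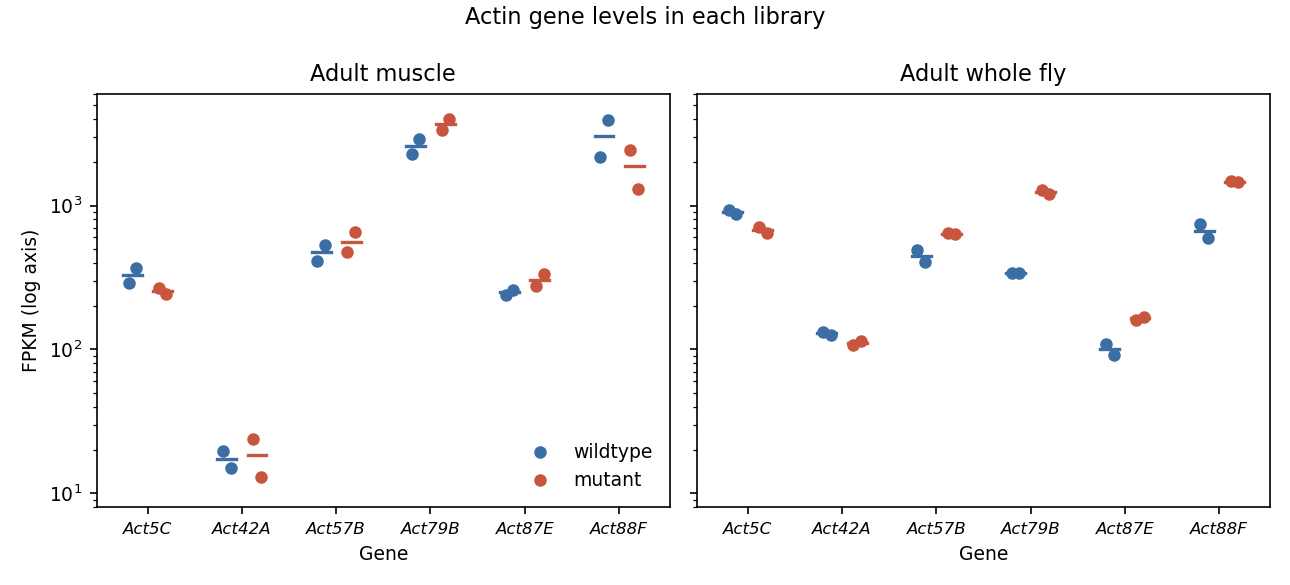
FPKM (log axis) of each actin gene in the 2 wildtype and 2 mutant libraries of adult muscle and of adult whole fly; points are libraries and short lines are group means. In whole flies Act79B went from 339 and 339.9 to 1279 and 1200.6 FPKM, while in muscle the Act88F values of a genotype are spread widely.

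Whole flies, which hold every tissue, had a different make-up, and here the genotypes stood apart. Act88F had 739 and 598 FPKM in the wildtypes and 1482 and 1448 in the mutants. Act79B had 339 and 339.9 FPKM in the wildtypes and 1279 and 1200.6 in the mutants. Both mutants lay above both wildtypes for each of these genes, and the replicates of a genotype were close.

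Act57B and Act87E moved the same way with smaller steps. Act57B went from 491 and 406 FPKM to 644 and 632, and Act87E from 109.8 and 91.5 to 161 and 168. All 4 muscle actins therefore had both mutants above both wildtypes, as did 34.5% of the 11419 entries tested. Act5C went the other way, from 932 and 872 FPKM to 710.0 and 649. Act42A had 132 and 126 FPKM against 107 and 115, so for both cytoplasmic actins both mutants lay below both wildtypes, which held for 31.5% of entries. Together, groups without overlap made up 66% of whole-fly entries.

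In wildtype whole flies the order ran Act5C, Act88F, Act57B, Act79B, Act42A, Act87E, and in mutants Act88F, Act79B, Act5C, Act57B, Act87E, Act42A. No neighbours overlapped in either order. Act5C was the most abundant actin RNA by FPKM in wildtype whole flies and the third in the mutants. By reads, Act5C was above Act79B in mutant replicate 1 (43901 against 43008) and below Act79B in mutant replicate 2 (38286 against 38513).

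Tested with limma, a linear model fitted to log2(FPKM + 1) of every entry that reached 1 FPKM in 2 libraries or more, 5 of the 6 actin genes differed between the genotypes in whole flies, at a Benjamini-Hochberg adjusted p below 0.05. The muscle actins Act57B, Act79B, Act87E and Act88F rose and the cytoplasmic Act5C fell. Over all entries tested 20.8% were called, 9.94% higher and 10.8% lower. The rise of Act79B was 1.86 ± 0.11 (log2 units with the SE, 2 libraries a group, limma adjusted p = 6.89e-05), and its mean FPKM was 3.65-fold that of wildtype. Of the 11419 entries, 85 rose by more on this scale. Act88F rose by 1.14 ± 0.14 (2.19-fold, limma adjusted p = 0.0015), with 276 entries above it. Act87E rose by 0.71 ± 0.12 (1.63-fold, limma adjusted p = 0.00595) and Act57B by 0.51 ± 0.13 (1.42-fold, limma adjusted p = 0.0274). Act5C fell by 0.41 ± 0.11 (0.753 of wildtype, limma adjusted p = 0.0443). Act42A, at -0.22 with a 95% interval from -0.45 to 0.01, did not pass (limma adjusted p = 0.155).

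The calls were not equally firm. Act79B and Act87E passed in all alternatives run. Act88F passed in all but the fit that shared its spread with the muscle libraries (limma adjusted p = 0.152). That fit also ended the calls of Act5C (0.165) and Act57B (0.211), as did testing without a filter on low values (0.0854 and 0.0636). The call of Act5C also ended without wildtype replicate 1 (-0.36, limma adjusted p = 0.309), wildtype replicate 2 (-0.46, limma adjusted p = 0.163) or mutant replicate 2 (-0.34, limma adjusted p = 0.0597). That of Act57B also ended without wildtype replicate 2 (0.38, limma adjusted p = 0.238) or mutant replicate 1 (0.50, limma adjusted p = 0.0502), and under quantile scaling, which set it at 0.26 (limma adjusted p = 0.153).

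In muscle, 0 of the 6 actin genes passed, as did 0% of the 10079 entries tested. None of the 6 had an unadjusted p under 0.05, against 1408 of all entries, and limma-voom on reads recovered from the FPKM also called 0 actin genes. The difference of Act79B was 0.51 with a 95% interval from -0.06 to 1.08 (limma adjusted p = 0.388), and that of Act87E 0.29 with an interval from -0.13 to 0.70 (limma adjusted p = 0.472). Act57B was at 0.24 (interval from -0.43 to 0.91), Act42A at 0.04 (from -0.92 to 1.01) and Act5C at -0.35 (from -0.83 to 0.14). Act88F had the widest interval of the 6, from -2.01 to 0.60 around -0.70 (limma adjusted p = 0.557), and its value ran from -1.15 to -0.25 as each library was left out. In the same way Act57B ran from 0.01 (without mutant replicate 2) to 0.47 (without mutant replicate 1), Act87E from 0.15 to 0.42 (the same libraries), and Act5C from -0.52 (without wildtype replicate 1) to -0.17 (without wildtype replicate 2). Act79B ran from 0.33 (without wildtype replicate 1) to 0.68 (without wildtype replicate 2), and Act42A from -0.37 (without mutant replicate 1) to 0.46 (without mutant replicate 2). Groups without overlap, as seen for Act5C, Act79B and Act87E, occurred in 48.9% of all muscle entries, with both mutants lower, as for Act5C, in 25.3%.

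**Figure D2:**
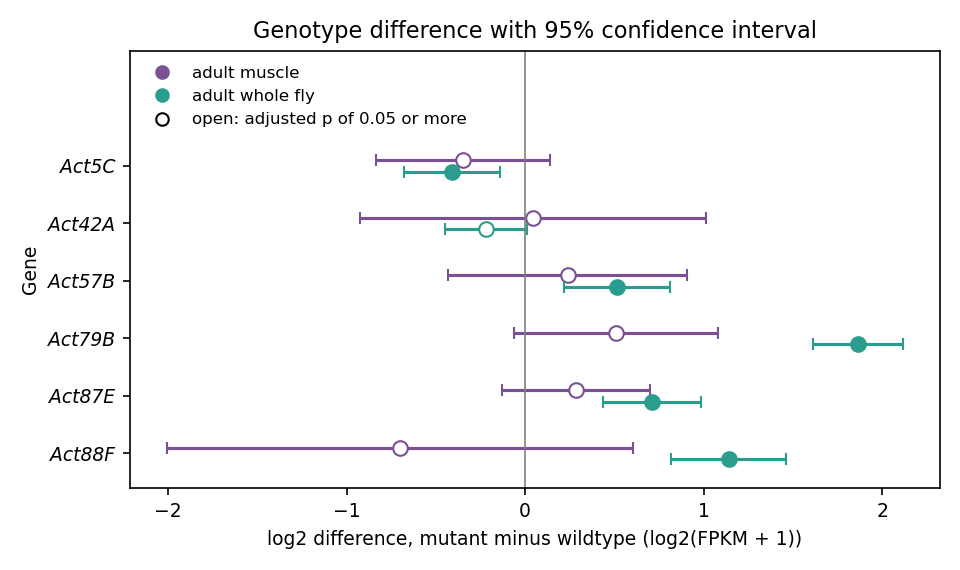
log2 difference of each actin gene, mutant against wildtype in log2(FPKM + 1), in muscle and whole fly, with 95% confidence intervals from limma; filled points passed at an adjusted p under 0.05. In whole flies 5 of 6 points are filled, and in muscle all intervals include 0, that of Act88F running from -2.01 to 0.60.

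Whether the genotype effect itself differed between the tissues was tested with limma as a genotype by tissue interaction, for 9444 genes tested in each tissue and matched by symbol. Each genotype effect was formed within its own table, because the tables were scaled separately. Of the actin genes 1 passed, where 5.83% of all genes did. The effect on Act79B was smaller in muscle than in whole flies, with muscle minus whole fly at -1.36 ± 0.22 (log2, SE, limma adjusted p = 0.0293). For Act88F the gap was larger but less certain, at -1.84 with an interval from -3.16 to -0.52 (limma adjusted p = 0.102). Act87E was at -0.42 (from -0.89 to 0.04), Act57B at -0.28 (from -0.98 to 0.43), Act42A at 0.26 (from -0.70 to 1.22) and Act5C at 0.06 (from -0.43 to 0.56).

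Each fit without a library leaves 1 library in a group. Over these fits the Act79B interaction stayed between -1.53 and -1.18, but its call was not firm. It lost its call without whole-fly wildtype replicate 1 (limma adjusted p = 0.142), wildtype replicate 2 (0.139), mutant replicate 1 (0.123) or mutant replicate 2 (0.0709), and without muscle wildtype replicate 2 (0.0575), with values between -1.40 and -1.18. Without muscle mutant replicate 1 Act88F passed as well, at -2.29 (limma adjusted p = 0.021).

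A share of the actin RNA does not depend on how a library or table was scaled, so the make-up of the family can be set side by side for the tissues. The muscle actins made up 94.3% and 95.2% of the summed actin FPKM in wildtype muscle and 95.7% and 96.1% in mutant muscle. In whole flies they made up 61.2% and 59.0% in wildtype and 81.4% and 81.9% in mutant. The cytoplasmic actins, the remainder, were thus a small part of actin RNA in muscle, and in whole flies they made up 38.8% and 41.0% in wildtype and 18.6% and 18.1% in mutant.

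Act79B gained share in both tissues. It held 42.1% and 36.3% of actin FPKM in wildtype muscle and 49.1% and 61.0% in mutant muscle, a difference of 15.8 percentage points, or 9.81 points without mutant replicate 2. In whole flies it held 12.4% and 14.0% in wildtype and 29.2% and 28.5% in mutant, a difference of 15.7 points. The groups did not overlap in either tissue.

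The share of Act88F went opposite ways. It was 40.1% and 48.9% in wildtype muscle and 35.7% and 20.0% in mutant muscle, so both mutants lay below, with a mean difference of -16.6 points, or -8.82 points without mutant replicate 2. A share also moves with the other actins, and the level of Act88F in muscle overlapped between the genotypes (-0.70, limma adjusted p = 0.557). In whole flies the share of Act88F was 26.9% and 24.6% in wildtype and 33.8% and 34.4% in mutant, so both mutants lay above. The level of Act79B was 1.05-fold and 0.743-fold that of Act88F in wildtype muscle and 1.37-fold and 3.04-fold in mutant muscle. In whole flies this ratio was 0.459 and 0.568 in wildtype and 0.863 and 0.829 in mutant. It was thus higher in both mutants than in both wildtypes of the same tissue, a ratio chosen after the values were seen.

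Act57B held 7.64% and 6.69% of actin FPKM in wildtype muscle and 6.92% and 9.94% in mutant muscle, which overlapped. In whole flies it went from 17.9% and 16.7% to 14.7% and 15.0%, a lower share although its level rose. Act87E stayed a minor form, at 3.25% to 5.10% of actin FPKM over all 8 libraries, with overlapping groups in both tissues. Act5C held 34.0% and 35.8% in wildtype whole flies and 16.2% and 15.4% in mutants. As a share of actin reads, Act5C held 48.0% and 50.1% in wildtype and 25.9% and 24.8% in mutants. An exact two-sided permutation test with 2 libraries against 2 cannot give a p below 0.333, and each share whose groups did not overlap reached that smallest value.

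**Figure D3:**
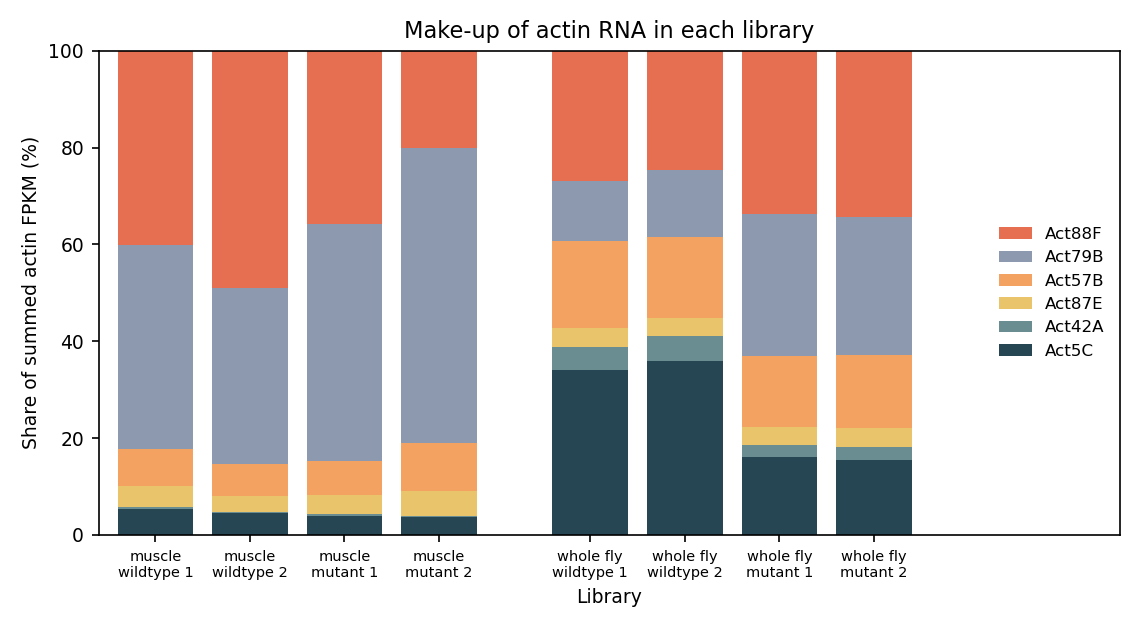
Share (%) of each actin gene in the summed FPKM of the 6 genes, with a stacked bar for each library. Cytoplasmic Act5C and Act42A fill 38.8% and 41.0% of the wildtype whole-fly bars and 18.6% and 18.1% of the mutant ones, and Act88F shrinks to 20.0% in muscle mutant replicate 2.

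Most genes for proteins that sit on or anchor actin in the sarcomere also rose in whole flies. Of 10 tested thin filament partners 8 were called higher and 0 lower in the mutants, where 9.94% of all entries were called higher and 10.8% lower. Their median log2 difference was 1.12, against a median of 0.02 over all entries. The count was 8 in every alternative run, without a check gene by gene. The largest rises were those of the troponin C genes TpnC41C, from 43.8 and 36.3 FPKM to 128 and 101.1 (1.49, limma adjusted p = 0.000662), and TpnC47D (1.37), and of the tropomyosin gene Tm1 (1.28, from 77.8 and 74.9 to 212 and 164 FPKM). TpnC73F, at -0.24, and the titin-like gene sls, at 0.10, did not pass. Lasp, the eleventh gene of the list, was listed at 0 reads in all 8 libraries and was not tested. More cells of a type and more RNA per cell cannot be told apart in such samples. In muscle 0 of these 10 genes passed by limma, with a median of 0.02. The 2 with the smallest p were TpnC47D at -0.76 (limma adjusted p = 0.274, unadjusted 0.00546) and sls at 0.97 (limma adjusted p = 0.34), which was 0.56 without mutant replicate 2 and 1.38 without mutant replicate 1.

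Regulators that assemble, cap, cut or branch actin filaments were compared next. Of 32 tested in whole flies 2 were called higher and 2 lower, with a median of -0.06, where 20.8% of all entries were called. The formin gene Fhos, whose product builds sarcomeric actin filaments, rose from 29.1 and 29.9 FPKM to 47.9 and 54.4 (0.77, limma adjusted p = 0.0029). The gene tmod, for tropomodulin, which caps the slow-growing filament end, rose from 15.3 and 13.7 to 23.2 and 24.0 FPKM (0.67, limma adjusted p = 0.00602). Arpc3B, for a subunit of the Arp2/3 complex that branches filaments, fell from 19.3 and 19.5 to 11.2 and 7.71 FPKM (-0.98, limma adjusted p = 0.00704). The other call was the formin gene capu, lower at -0.42 (limma adjusted p = 0.0393), which is named as the only remaining call. In muscle 0 of 32 passed, with a median of 0.11. The smallest p-values there were those of Gel, the severing protein gelsolin, at -0.70 (115 and 108 FPKM against 69.9 and 66.5, limma adjusted p = 0.243), and Fhos at 0.70 (86.2 and 81.7 against 131 and 143, limma adjusted p = 0.251).

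Actin-related proteins, relatives of actin that mostly work in the Arp2/3 complex, dynactin and chromatin remodelling, gave 0 calls among 9 tested in either tissue. Unadjusted p-values under 0.05 were seen in whole flies for Arp3 (-0.32, limma adjusted p = 0.0523), Arp53D (-0.58, limma adjusted p = 0.0554) and Arp8 (0.50, limma adjusted p = 0.0696), the last named after its value was seen. In muscle the smallest p-values were those of Arp10 (-0.31, limma adjusted p = 0.371) and Arp6 (-0.32, limma adjusted p = 0.486), which ran from -0.51 to -0.13 as each library was left out. limma-voom called Arp3 and Arp53D lower in whole flies. Arp3 was also called lower with quantile scaling (limma adjusted p = 0.0387) and with scaling to reads outside the mitochondrial genome (0.0309). It did not pass with the replicate block (limma adjusted p = 0.12) or with the spread shared between tissues (0.107).

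**Figure D4:**
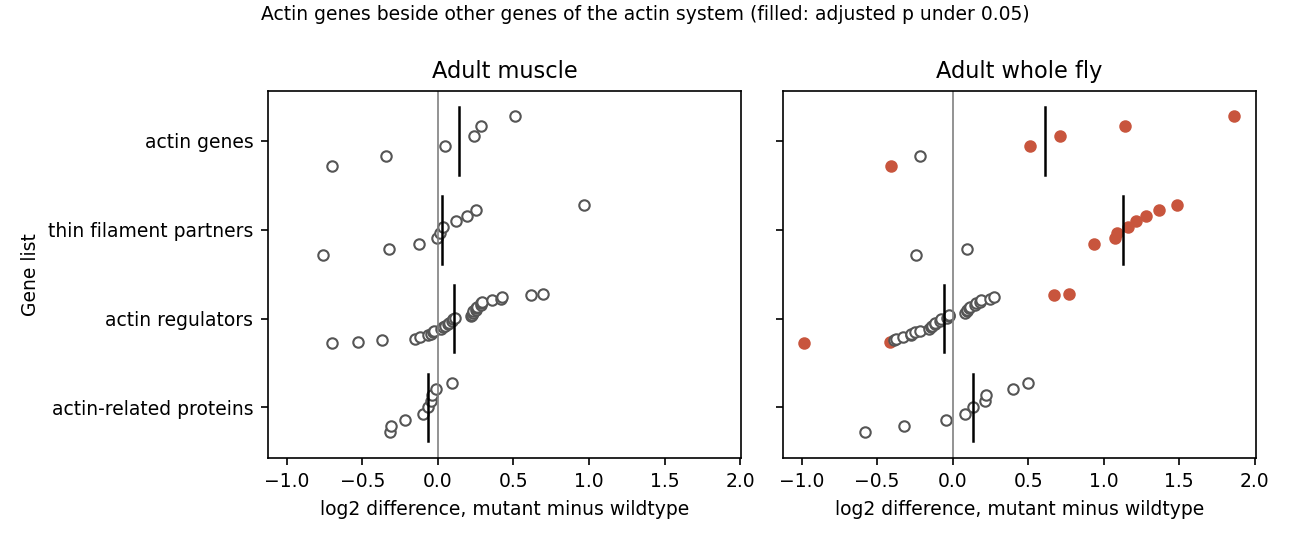
log2 difference, mutant minus wildtype, of the actin genes and of 3 lists of other genes of the actin system, in muscle and whole fly; each point is a gene, filled at an adjusted p under 0.05, and vertical bars are medians. In whole flies 8 of 10 thin filament partners are filled and to the right of 0, against 2 of 32 actin regulators, and in muscle no point is filled.

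Marker lists of other cell types were compared between the whole-fly groups, where 9.94% of all entries were called higher and 10.8% lower. Digestive enzyme genes of the gut took 2.67% and 2.61% of reads in wildtype and 1.35% and 1.43% in mutant, and 13 of 16 were called lower and 1 higher. Fat body genes were called higher in 6 of 10 cases and lower in 1, ovarian germline genes higher in 4 of 8 tested, hemocyte genes higher in 1 of 7, testis genes lower in 1 of 8, and neuronal genes in 0 of 10. The fat body genes were uneven. Fbp1, Fbp2 and Lsp2 were under 1 FPKM in both wildtypes and had 31.0 and 25.4, 48.7 and 40.9, and 6.24 and 9.64 FPKM in the mutants. FASN1 fell from 216.8 and 216.6 to 95.4 and 133 FPKM. Mitochondrial transcripts took 6.89% and 5.41% of reads in wildtype and 11.1% and 9.30% in mutant. The part of these differences in the actin result was not tested. With libraries scaled to reads outside the mitochondrial genome, an alternative added after the data were seen, the whole-fly calls were again 5 of 6, with Act79B at 1.81 and Act5C at -0.47. In muscle this scaling gave 0 actin calls, with Act79B at 0.57, Act87E at 0.34 and Act88F at -0.64.

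Markers of flight muscle, the tissue of Act88F, were also compared. Of 5 markers 3 were called higher in mutant whole flies, where 9.94% of all entries were, namely fln, for flightin, Strn-Mlck, a myosin kinase gene, and TpnC4, the flight muscle troponin C, which went from 141 and 114 to 291 and 298 FPKM. The other 2, salm at 0.07 and Mf at 0.13, did not pass in whole flies. TpnC4 is also one of the 8 thin filament partners called. In muscle it had 871 and 976 FPKM against 799.7 and 678 in the mutants, and Mf, a muscle protein gene, 1358 and 1227 against 816 and 1049.7, while fln had 23.9 and 29.4 against 29.3 and 23.7. The salm gene, for a transcription factor of flight muscle fate, had 3.23 and 2.60 FPKM in wildtype muscle and 8.18 and 7.53 in mutant muscle. In muscle 0 of the 5 passed by limma and salm alone had an unadjusted p under 0.05, at 0.00156. How much flight and tubular muscle each dissected sample held was not tested.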

How the data were processed

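The authors deposited 2 tables of FPKM. The sources used here do not give the aligner, the counter or the treatment of strand. A mouse build stands in the submitters' processing notes, but identifiers and coordinates are those of fly release 6. Columns of the whole-fly table name genotype and repeat only and were assigned because the other table names all 4 muscle samples. FPKM times gene length gave whole reads within 0.1 for 100% of values. Reference tables gave a symbol for 23366 and 17863 entries. The main test was limma 3.58.1 (R 4.3.3, trend) on log2(FPKM + 1), FPKM of at least 1 in 2 libraries, each tissue alone, threshold 0.05, which understates changes of weakly expressed genes. It was also run on simulated reads with the same spread in both tissues, so that run does not show how it does in muscle. Shares were tested with an exact permutation test (scipy 1.17.1). Actin genes and lists (actin regulators, actin-related proteins, thin filament partners, markers of flight muscle, gut, fat body, neurons, ovary, testis and hemocytes) were chosen with earlier results of these data known. All actin genes are named, with up to 3 passing members per other list and tissue, or the 2 with the smallest p. Alternatives changed pseudocount, filter, scaling, model, replicate block and libraries. Exon structure came from an Ensembl annotation whose coordinates matched. No sequence is printed, since no sequence file was used here.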

Additional observations from a re-analysis of the deposited data

Results flagged for a closer look

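The genotype effect on Act79B differed between the tissues by a test of the difference itself. It was -1.36 on the log2 scale, muscle minus whole fly, with a whole-fly rise of 1.86 and a muscle value of 0.51 (limma adjusted p = 0.0293). The call was lost without any 1 of the 4 whole-fly libraries or without muscle wildtype replicate 2, with adjusted p between 0.0575 and 0.142, and with the replicate block (0.105). The share of Act88F in actin FPKM moved in opposite directions, with every mutant library below both wildtypes in muscle, by -16.6 percentage points, and above both in whole flies, by 8.34 points. Without muscle mutant replicate 2 the muscle difference was -8.82 points, and the Act88F levels in muscle overlapped between the genotypes. The difference of the Act88F shares between tissues was not tested.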

How the results depend on the processing

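Of 524 recomputed values 455 kept their direction and their side of the threshold, or stayed within 1.5 times a count, and 14 reversed. Shares had no threshold and were counted by direction alone. The 455 include muscle values that stayed uncalled while their size changed, and gene lengths that could not change a share. They are therefore not a measure of how firm the results are. In muscle, actin calls stayed at 0 in every alternative, while entries called were 2 with FPKM of at least 5, 2 with quantile scaling and 251 with the spread shared between tissues, and 0 to 12 with a library left out. Act42A in muscle was -0.021 with limma-voom and between -0.37 and 0.46 with a library left out. In whole flies 544 entries were called with the shared spread and 1409 to 3213 with a library left out. Actin calls there were 3 with no filter, 2 with the shared spread and 3 to 4 with a library left out. Act5C was -0.41 with no filter (limma adjusted p = 0.0854) and with the shared spread (0.165), and -0.47 to -0.34 with a library left out. Act57B was 0.51 with no filter (0.0636) and with the shared spread (0.211), 0.26 with quantile scaling, and 0.38 to 0.65 with a library left out, and Act88F was 1.14 with the shared spread. The cause was not tested.

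For the difference between tissues, leaving out a library gave 11 to 1686 calls in all, 0 to 2 among actin genes, -1.53 to -1.18 for Act79B, -2.29 to -1.39 for Act88F, -0.11 to 0.24 for Act5C and -0.15 to 0.68 for Act42A. The replicate block left 16 calls, 0 among actin genes, with Act79B at -1.36 (limma adjusted p = 0.105). Same-numbered libraries deviated together in muscle (r = 0.389 across entries) but not in whole flies (-0.149). The main fits did not take the numbers as pairs in either tissue, and whether they are pairs in muscle is not known. The block leaves 1 residual degree of freedom in a tissue. It gave 0 calls in muscle, and 2807 whole-fly calls against 2372 in the main fit.

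The share of Act42A in muscle differed by -0.000465 points, by 0.00131 as a share of reads and by -0.0888 to 0.0879 with a library left out. Act57B in muscle ranged from -0.25 to 2.77 points. Act87E in whole flies was 0.465 as a share of reads and -0.211 to 0.111 with a library left out. Gene lengths are equal in both tables, so that alternative changed nothing. Each group has 2 libraries.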

Other observations

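Across the 8 libraries, with the mean of each table subtracted, Act57B, Act79B and Act87E varied together (Pearson r of log2 values 0.842 to 0.953 between pairs), while Act88F followed them less closely (0.351 to 0.572). These 8 points share genotype, tissue and library differences, so the values are a description. Among 9444 genes the pattern most like that of Act88F was that of stw (r = 0.993) and uif (0.991), of Act79B Mal-B1 (0.994) and CG9416 (0.993), and of Act87E vg (0.997) and FipoQ (0.989). For Act57B these were ninaB (0.989) and wap (0.985), for Act5C CG13102 (0.987) and CG5921 (0.987), and for Act42A CG42855 (0.992) and CG33136 (0.989). Picking the closest of 9444 genes over 8 points itself favours a high r, so these names describe these libraries only.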
